A study of Drosophila melanogaster with 3 samples.

Results

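The genes described here are 115 autosomal genes of Drosophila melanogaster that still carried only a CG number, the provisional label of a gene found by annotation, and whose RNA was more abundant the more X chromosomes the larvae carried. They were chosen from the measured values themselves: a gene had to lie in the deposited autosomal table, reach at least 5 counts per 1000000 transcript counts (CPM) in females, stand at least 1.5 times higher in metafemales than in females, and at most 0.67 times as high in males as in females. Of 14161 gene names in both tables, 6684 are autosomal CG names, 3055 of these had at least 5 CPM in females, and 118 (3.86%) passed both ratio limits. Among those 118, CG3523, CG8193 and CG32198 were left out by the rule, and CG11198, which the rule also names, did not pass because its male to female ratio was 0.803. Since these values chose the members, their levels and ratios are a description and no test is made on them.

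RNA came from larvae of the third instar in 3 groups: ordinary females carrying a pair of X chromosomes, males carrying a single X and a Y, and metafemales, in which an additional X joins the pair while the autosomes stay diploid. Between males and females, X number cannot be told apart from sex or the Y. All stocks were kept at 20 degrees, and neither stock genotypes nor crosses nor larval age within the instar are stated in the labels. Each group has 1 column of values that pools 3 biological repeats, so the spread between repeats cannot be measured for any difference, and the intervals below (95%, exact binomial on the ratio of counts) cover counting error only. Library totals read from the steps between low values ran from 31.6 to 112 M transcript counts, and the columns carry the counting error of 226 M counts in females, 169 M in males and 269 M in metafemales.

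In flies, males raise transcription of their single X through the MSL complex, so that X-linked output approaches that of females, and autosomal genes are present in the same number in all 3 groups. Changed X number can still alter autosomal genes, either in the same direction as the X number or against it, and the metafemale, which is weak and often dies before adulthood, has been a classical test case for such effects. Several of the enzyme families described below are known from the larval midgut and fat body: the midgut breaks down food with secreted and membrane-bound hydrolases behind a chitin-containing peritrophic matrix, and the fat body stores and releases fuel. Whole larvae were measured, so a lower value from fewer cells of a type and one from less RNA per cell cannot be told apart.

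In metafemales 303 of 3055 autosomal CG genes (9.92%) reached 1.5 times the female value, and in males 300 (9.82%) were at or below 0.67 times the female value. The 2 ratios share the female column, and the rule fixed the counts, so nothing is read from their overlap. Both limits were also passed by 105 of 3275 autosomal genes with other names (3.21%) and by 48 of 628 X-linked CG genes (7.64%). The mirrored limits, a metafemale to female ratio of at most 0.67 and a male to female ratio of at least 1.5, were passed by 127 autosomal CG genes (4.16%), 135 other autosomal genes (4.12%) and 3 X-linked CG genes (0.478%). The opposite corners held fewer genes: 21 (0.687%) were at least 1.5 times higher in both metafemales and males, and 64 (2.09%) at most 0.67 times as high in both. As deposited, the median autosomal CG gene had a metafemale to female ratio of 0.751 and a male to female ratio of 0.952, so the upper limit of 1.5 lay further from the middle than the lower one.

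**Figure D1:**
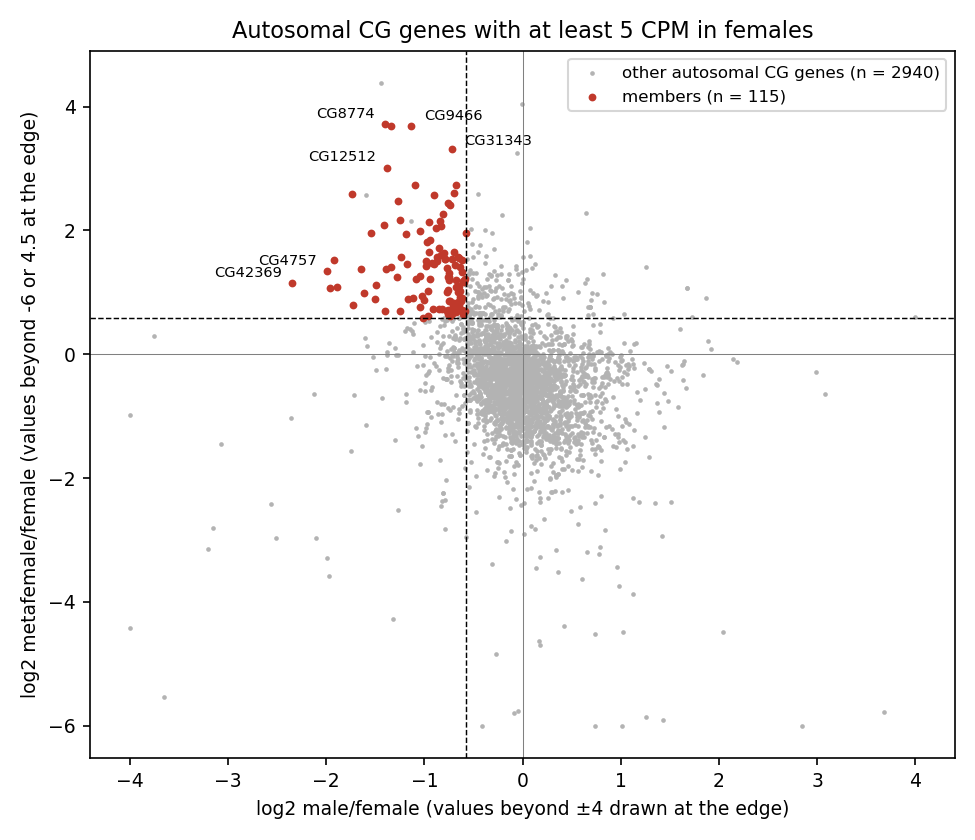
Log2 ratio of males to females (x axis) against log2 ratio of metafemales to females (y axis) for 3055 autosomal CG genes with at least 5 CPM in females, 1 point per gene. Red points are the 115 members, and dashed lines are the limits of 1.5 and 0.67. The members fill the upper left corner, where the grey points are the genes left out by the rule. Among the members CG8774 stands highest, at a metafemale to female ratio of 13.2, and CG42369 furthest left, at a male to female ratio of 0.197.

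The members differed widely among themselves. Their metafemale to female ratios ran from 1.5 to 13.2 with a median of 2.37, and 77 of them were at least 2-fold higher in metafemales, 31 at least 3-fold and 13 at least 5-fold. Their male to female ratios ran from 0.197 to 0.67 with a median of 0.563, and 37 were at or below 0.5. In 84 members the step from female to metafemale was the larger of the 2 on the log2 scale, and in 31 the step from male to female was. Only 26 were at least 2-fold apart in both steps. Female values ran from 5.0 to 351 CPM with a median of 14.9, and 40 members lay below 10 CPM, 68 from 10 to 100 CPM and 7 at 100 CPM or more. Summed over the members, the values were 2087 CPM in males, 3937 in females and 11470 in metafemales.

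All 115 names matched the Release 6 annotation, and 31 of them now have a symbol that is not a CG number. CG32352 and CG32355 are now the single gene CG43078, so the names stand for 114 genes. A role known from the current symbol, a listed synonym or textbook knowledge of the family was given to 60 names. The remaining 55 were put in no group by role and are described by their values, some with a current symbol or synonym.

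The M1 aminopeptidases, zinc enzymes that remove amino acids from the ends of peptides, held the steepest member, CG8774, and the fourth, CG31343. CG8774 had 4.79 CPM in males, 12.7 in females and 167 in metafemales. This was the highest metafemale to female ratio of all members, 13.2 (12.7 to 13.7), and the highest metafemale to male ratio, 34.9. Its neighbour CG8773 had a smaller ratio, 3.53, with 32.5 CPM in males, 63.6 in females and 225 in metafemales. CG31343 had 35.0, 57.6 and 572 CPM in the same order, a metafemale to female ratio of 9.93 (9.75 to 10.1) beside a male to female ratio of 0.607. CG31233 had 16.4, 47.8 and 186 CPM, and CG31198 had 65.9, 136 and 539.8. All 5 enzymes were at least 3.53 times higher in metafemales than in females, and their summed value was 155 CPM in males, 317 in females and 1690 in metafemales.

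The lysosomal-type alpha-mannosidases, which trim mannose from glycoproteins, ranked directly after CG8774. LManV (CG9466) had 7.97 CPM in males, 17.5 in females and 226 in metafemales, and LManVI (CG9468) had 11.2, 28.4 and 365. Their metafemale to female ratios were equal within counting error, 12.9 (12.5 to 13.3) and 12.9 (12.5 to 13.2). The lipase genes CG6296 and CG6295, whose products are of the type that splits dietary fat, had 75, 134 and 407 CPM and 4.77, 8.14 and 21.5 CPM in males, females and metafemales. These neighbours differed widely in counts but little in their ratios, which were 3.04 and 2.64 for metafemales and 0.561 and 0.586 for males.

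A pair of genes for the a subunit of the V-ATPase, the proton pump that acidifies lysosomes and part of the midgut, was among the members. Vha100-4 (CG7678) had 3.80 CPM in males, 6.15 in females and 37.5 in metafemales, a metafemale to female ratio of 6.09 (5.76 to 6.45). Vha100-5 (CG12602) changed less, with 20.2, 33.9 and 80.3 CPM. Alkaline phosphatases, ectoenzymes found on absorptive epithelia, numbered 3, and in Alp5 and Alp6 the step from male to female was the larger. Alp6 (CG1809) had 21.3, 47.9 and 88.6 CPM, and Alp5 (CG10827) had 33.7, 65.5 and 100.3. Alp12 (CG16771) had 11, 16.9 and 31.7 CPM, with the larger step from female to metafemale.

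Other peptidases numbered 13 and were on the whole less steep, with a median metafemale to female ratio of 1.99. The M14 carboxypeptidase gene CG17633 had the highest value of all members in metafemales, 893 CPM, beside 312 in females and 204 in males. Per kilobase of its longest annotated transcript it was also the most abundant member, at 231 CPM per kb in females and 661 in metafemales. A second carboxypeptidase gene of this family, CG8562, had 10.3, 18.2 and 76.9 CPM in males, females and metafemales, the steepest of the 13 at 4.23 (4.09 to 4.37). The aspartic protease gene CG17134 had 39.8, 62.6 and 126 CPM.

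Serine proteases and a protease homologue without a working catalytic site contributed 6 of the 13. CG18179 (synonym SP152) lay at the edge of the rule, with 55.0 CPM in males, 111 in females and 167 in metafemales, a ratio of 1.5 whose counting interval of 1.48 to 1.53 spans the limit. CG11313 (synonym SP11) had 11.4, 22.0 and 50.7 CPM, and CG4053 (SP185) had 3.19, 7.59 and 12.3. CG30091 (SP49), CG30187 (SP222) and the homologue CG4793 (SPH208) had metafemale to female ratios of 2.27, 1.77 and 2.68. The neprilysin-like metallopeptidase genes Nepl4 (CG9505) and Nepl18 (CG14528) were low in slope, at 1.65 and 1.58. The aminoacylase genes CG17109 and CG6733, whose products free amino acids from their acetylated forms, differed more to the male side. CG17109 had 5.37 CPM in males and 16.4 in females, a ratio of 0.327 (0.304 to 0.352), and 32.7 in metafemales, and CG6733 had 2.36, 5.10 and 9.55.

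Chitin-binding proteins of the peritrophin type line the peritrophic matrix or other chitin-containing layers. CG7290 had the highest count of the 5, with 181 CPM in males, 281 in females and 568 in metafemales. CG17826 had 33.4, 60.2 and 198 CPM and CG7252 had 23.1, 35.6 and 64.8, and these genes lie side by side on arm 3L. CG17147 had 8.60, 14.6 and 22.8 CPM. CG10154 differed from the other 4 in being low in males, with 8.01, 29.8 and 62.9 CPM and a male to female ratio of 0.269 (0.254 to 0.285).

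Enzymes and carriers of intermediary metabolism, most of them for fatty acid, lipid and mitochondrial fuel use, were put together after their values were seen and number 18, with a median metafemale to female ratio of 2.71 and a median male to female ratio of 0.565. Acsf2 (CG12512), an acyl-CoA synthetase that activates fatty acids, was the steepest, with 1.98 CPM in males, 5.17 in females and 41.8 in metafemales, a ratio of 8.08 (7.61 to 8.59). The acyl-CoA dehydrogenase gene CG3902, for an early step of the oxidation of short and branched acyl chains, had 15.5, 27.1 and 131 CPM. The 3-hydroxyisobutyrate dehydrogenase gene CG15093, in valine breakdown, had 8.36, 15.0 and 66.8 CPM. SCOT (CG1140), the enzyme that lets cells use ketone bodies, had 8.39, 13.8 and 40.3 CPM.

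The enoyl-CoA hydratase gene Echs1 (CG6543) had 47.3, 73.9 and 128 CPM in males, females and metafemales, the glutaryl-CoA dehydrogenase gene CG9547 had 6.95, 11.7 and 18.4, and CRAT (CG1041), the carnitine acetyltransferase, had 16.8, 25.2 and 41.0. Carriers of the inner mitochondrial membrane were represented by the phosphate carrier Mpcp1 (CG9090), with 3.47, 8.27 and 37.2 CPM, and by CG9399 (synonym dMPC2, a subunit of the pyruvate carrier), with 4.01, 5.99 and 23.2. CG9399 was the member closest to the male limit, at 0.67 (0.610 to 0.735).

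Apoltp (CG15828), the apolipoprotein of the lipid transfer particle that loads lipid onto circulating lipoprotein, had 27.1 CPM in males, 42.9 in females and 128 in metafemales. The acyl-CoA desaturase genes CG8630 and CG9743, whose products put double bonds into fatty acids, had male to female ratios of 0.396 and 0.380 and metafemale to female ratios of 2.66 and 2.60. AGBE (CG33138), the branching enzyme of glycogen synthesis, had 13.2, 23.0 and 71.1 CPM. Adss (CG17273), an enzyme of purine synthesis, had 42.9, 83.8 and 169 CPM, close to a doubling at each step. Miox (CG6910), which opens the ring of myo-inositol, had 35.7, 66.9 and 111 CPM. The remaining genes of the group were the folate enzyme gene CG8665, with 6.03, 13.6 and 37.5 CPM, CG9331 (synonym GRHPR, a glyoxylate and hydroxypyruvate reductase), with 22.4, 35.8 and 75.8, and the acyl-CoA synthetase gene Acsx4 (CG11453), with 3.98, 7.18 and 11.9.

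**Figure D2:**
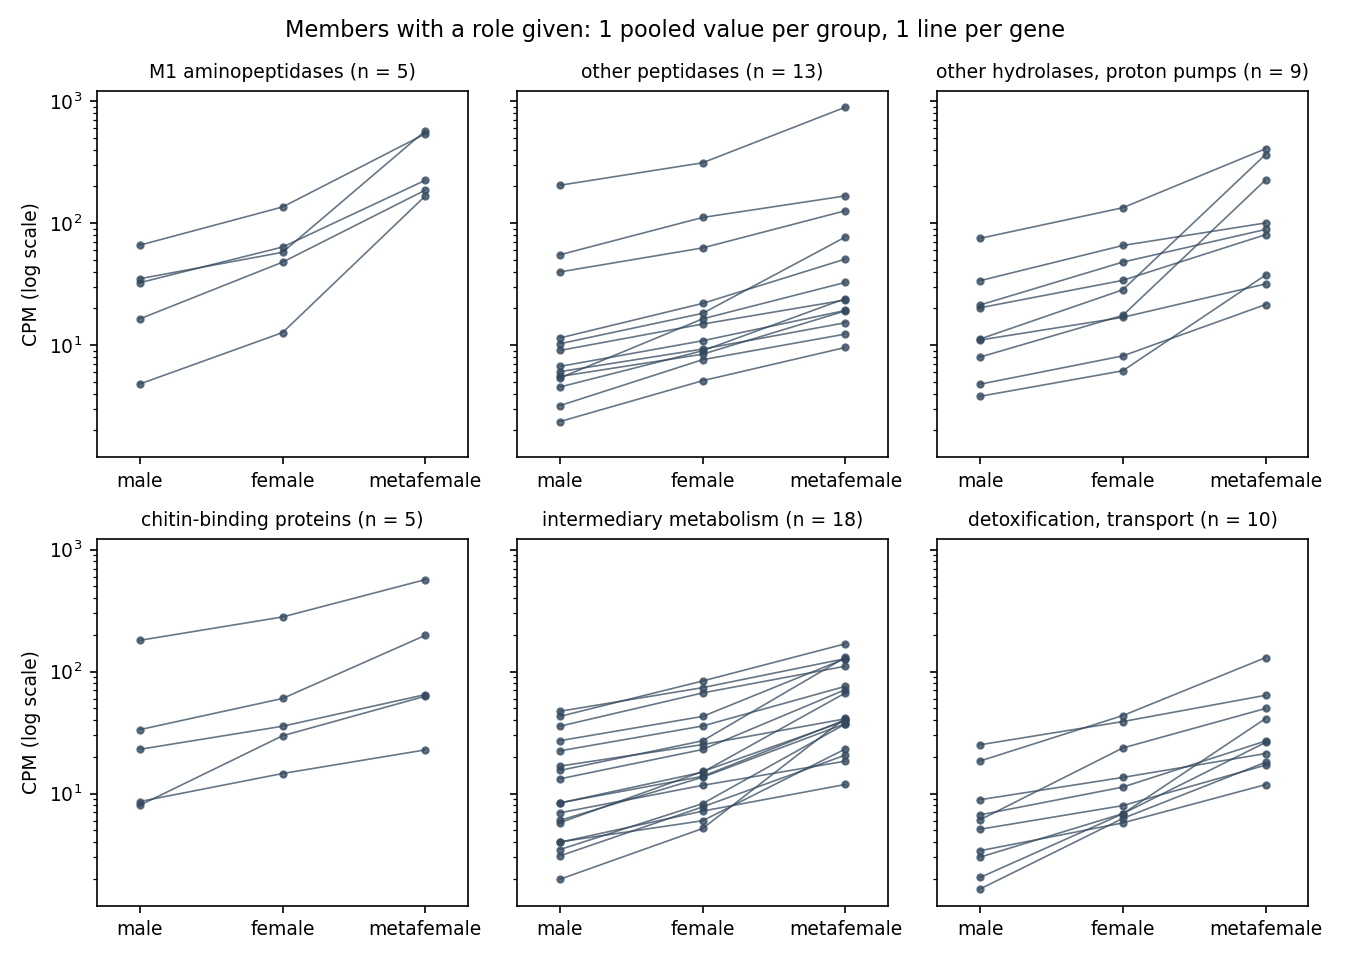
CPM on a log axis in males, females and metafemales for the 60 members with a role given, 1 line per gene and 1 pooled value per group, with no error bars because there is no value per repeat. The steepest segments from females to metafemales are those of CG8774, LManV, LManVI, CG31343 and Acsf2, and the chitin-binding genes lie between 1.56 and 3.29.

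Enzymes and carriers for foreign or small molecules made up 10 members. The aldehyde oxidase genes AOX1 (CG18522) and AOX2 (CG18519) are neighbours, and AOX1 had 18.5 CPM in males, 43.6 in females and 130 in metafemales where AOX2 had 3.40, 5.74 and 11.8. The EcKL genes, a family of kinase-like proteins linked to ecdysteroid and toxin phosphorylation in insects, had 3 members. In CG10560 and CG16898 the step from male to female was the larger. CG10560 (synonym Dro17-3) had 1.65 CPM in males, 6.25 in females and 18.0 in metafemales, and CG16898 (synonym Dro26-1) had 6.08, 23.6 and 49.8. Their male to female ratios were 0.264 and 0.257, and that of CG31974 (synonym Dro43-0) was 0.440. For CG31974 the step from female to metafemale was the larger, with 3.01, 6.84 and 26.2 CPM and a ratio of 3.83.

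Ugt49B1 (CG4302), a UDP-glycosyltransferase, had 5.09, 7.97 and 17.1 CPM in males, females and metafemales, and the aldo-keto reductase gene CG10863 had 25.1, 38.9 and 63.9. Among carriers, the sugar transporter family gene CG1208 was steep on both sides, with 2.05, 6.82 and 41.2 CPM and ratios of 0.300 and 6.04. Ctns (CG17119), which exports cystine from lysosomes, had 6.68, 11.3 and 26.9 CPM. MFS9 (CG4288), a major facilitator transporter, had 8.90, 13.6 and 21.3 CPM and the lowest metafemale to male ratio of all members, 2.39.

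Among the 55 names put in no group by role were several of the largest values. CG10910 had the highest female count of all members, 351 CPM, beside 124 in males and 762 in metafemales. CG9757 had 31.4, 67.3 and 447 CPM and was the second most abundant member per kilobase in metafemales, at 526 CPM per kb. CG14120 (20.5, 32.6 and 217 CPM), CG13492 (21.4, 39.9 and 236) and CG9297 (33.8, 56.5 and 302) all exceeded 5-fold in metafemales. So did CG32483, at 5.54, and CG4835, at 5.46. CG13460 had 62.8, 124 and 353 CPM and CG18493 had 36.2, 74.5 and 178.

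The lowest pair of male to female ratios of all members was also found here. CG42369 had 5.61 CPM in males, 28.5 in females and 63.5 in metafemales, a male to female ratio of 0.197 (0.184 to 0.211). CG4757 was next, with 5.42, 21.6 and 54.9 CPM (0.251). After them came CG16898, CG10560, CG10154 and CG1208, described above, and then CG3597 (synonym BVRA) with 1.53, 5.09 and 8.79 CPM (0.301). CG8708 (synonym dC1GalT2) had 1.76, 5.50 and 14.3 CPM (0.320). CG42369, CG4757, CG3597 and CG8708 were between 1.73 and 2.60 times higher in metafemales than in females, which is no more than moderate among the members. Of the 10 lowest male ratios and the 10 highest metafemale ratios, CG1208 alone stood in both sets. Others with a current symbol were hiro (CG3344; 40.4, 69.8 and 202 CPM), frac (CG7526; 8.75, 15.1 and 44.0), MnM (CG14964; 3.99, 7.30 and 20.8), the uracil-DNA degrading factor gene Ude (CG18410; 6.08, 9.42 and 25), SmydA-1 (CG8503; 4.37, 6.82 and 13.0), Ttd14 (CG30118; 16.2, 27.5 and 44.5) and Targ2 (CG33056; 7.29, 11.7 and 18.8).

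At the limits of the rule the values were continuous. CG9993 entered with 5.0 CPM in females, and CG9928 stayed out with 4.96 although it had 1.39 in males and 17.1 in metafemales. CG31463 and Alp5 entered with metafemale to female ratios of 1.53, and CG31266 stayed out with 1.49, as did CG11889 and CG11891, which have the same value in all 3 columns. On the male side, CRAT entered at 0.666 and CG9555 at 0.664, and CG7998, the mitochondrial malate dehydrogenase gene Mdh2, stayed out at a ratio that also rounds to 0.67, with 69.2 CPM in males, 103 in females and 224 in metafemales. Counting intervals of 4 members reached below 1.5 for metafemales and those of 18 reached above 0.67 for males, and for 93 of 115 both intervals lay wholly past the limits.

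Several transcripts and overlapping genes bear on how far a member's value is its own. In 27 members the table holds more than 1 transcript, and 51 of the 55 further transcripts also passed both ratio limits. The other 4 belong to CRAT, CG11961 and CG9399 and had male to female ratios of 0.671 to 0.678. Transcripts of a gene share reads, so this is no independent support. Exons of 18 members overlap exons of another coding gene in the Ensembl release 115 models, in 16 cases on the opposite strand, and the sources used here do not say whether counting used strand. Among them are CG17633, Vha100-4, CG3902, SCOT, Echs1 and CRAT, whose reads cannot be told apart from those of the partner where the exons overlap. In CG1208, Ctns, Alp12 and Targ2 the overlap is with a gene on the same strand, which no strand setting would separate. The share of other CG genes with such overlaps is not given here.

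Features that the rule did not use were compared with those of other autosomal CG genes with at least 5 CPM in females. By chromosome arm, 29 members lie on 2L, 20 on 2R, 28 on 3L, 38 on 3R and 0 on chromosome 4, where 22 CG genes reached 5 CPM. The share of an arm's CG genes that are members was 4.44% on 2L, 2.78% on 2R, 3.85% on 3L and 4.08% on 3R. The longest coding sequences of members had a median of 471.5 codons, against 411 for the 2927 other CG genes with a model and 163 for genes that pass the mirrored limits. At most 2 coding exons were found in 30.7% of members, 35.4% of the other CG genes and 53.5% of the mirrored set.

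Members lay next to each other in several places. With at most 2 coding genes between them, 25 of 114 genes (21.9%) fell into 12 blocks, and 21 (18.4%) were direct neighbours of another member. In the mirrored set 21 of 127 genes (16.5%) fell into 10 blocks and 12 (9.45%) were direct neighbours. That set was chosen on the same values, and no such share over all autosomal CG genes is given here. The largest block of members held 3 genes, the M1 aminopeptidase genes CG31343, CG31233 and CG31198 on arm 3R. Others were CG8773 and CG8774 on 3R, LManV and LManVI on 2L, AOX1 and AOX2 on 3R, the lipase genes CG6296 and CG6295 on 3R, the aminoacylase genes CG17109 and CG6733 on 3R, and CG7252 and CG17826 on 3L. The remaining 5 blocks were hiro with CG32483, CG9331 with CG31673, Targ2 with CG10512, CG5704 with CG5707, and CG30043 with CG13160. Reads shared between close relatives within a block would move their values together, and this was not tested.

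Some genes beside the blocks that are not members had the members' pattern, and others did not. Next to LManV, the related LManIII (CG9463) had 1.0 CPM in males, 1.66 in females and 13.2 in metafemales, and LManIV (CG9465) had 0.0541, 0.332 and 0.894, so both passed the ratio limits below the female minimum of 5 CPM. The same held for 5 direct flanks of other blocks, all under 5 CPM in females. No other direct flank of those blocks passed both ratio limits. A share over all genes under 5 CPM is not given here, so nothing is read from this count. CG30049, beside CG30043, had 0.473, 0.883 and 3.86 CPM in males, females and metafemales, and CG15879, beside CG5704, had 2.19, 3.74 and 6.91. CG31674, beside CG31673, had 0.539, 1.15 and 2.23 CPM, CG6738, beside CG6733, had 0.260, 0.509 and 1.01, and wntD, beside CG8773, had 0.120, 0.215 and 0.436. Next to CG8774, CG32473 had 52.8, 64.6 and 210 CPM, with a metafemale to female ratio of 3.26 but a male to female ratio of 0.817. At the larger aminopeptidase block the flanking genes were low in males and close to females in metafemales: CG42335 had 2.78, 8.36 and 9.12 CPM and CG5849 had 4.71, 7.93 and 9.75.

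Other flanking genes did not share the pattern. AOX3 (CG6045), beside AOX2, had 26.8, 32.9 and 42.8 CPM in males, females and metafemales, within the limits on both sides. RabX6, beside CG32483, had 6.42, 7.47 and 3.27 CPM, and obst-G, beside CG17826, had 14.1, 13.8 and 7.71, both lowest in metafemales. Past the lipase genes, CG17191 had 1.75, 9.94 and 1.28 CPM, lower than females in both other groups. On the other side of the aminoacylases, CG17110, next to CG17109, had 3.32, 2.77 and 4.44 CPM, highest in metafemales but higher in males than in females. The gene after it, CG6726, ran in the members' order with 32.4, 46.8 and 100.5 CPM and stayed out at a male to female ratio of 0.691. Of 102 direct neighbours that were no members and had at least 5 CPM in females, 15 (14.7%) reached 1.5 in metafemales and 15 (14.7%) were at most 0.67 in males, and 3 (2.94%) passed both. The same shares over all 6215 autosomal genes that are no members were 6.85%, 7.24% and 1.74%. The median metafemale to female ratio was 0.893 for the neighbours and 0.728 for all these genes. CG genes past both limits are members unless left out by name, so the rule took them out of both sets. This lowers the shares in both sets, and nothing is read from the share past both limits.

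**Figure D3:**
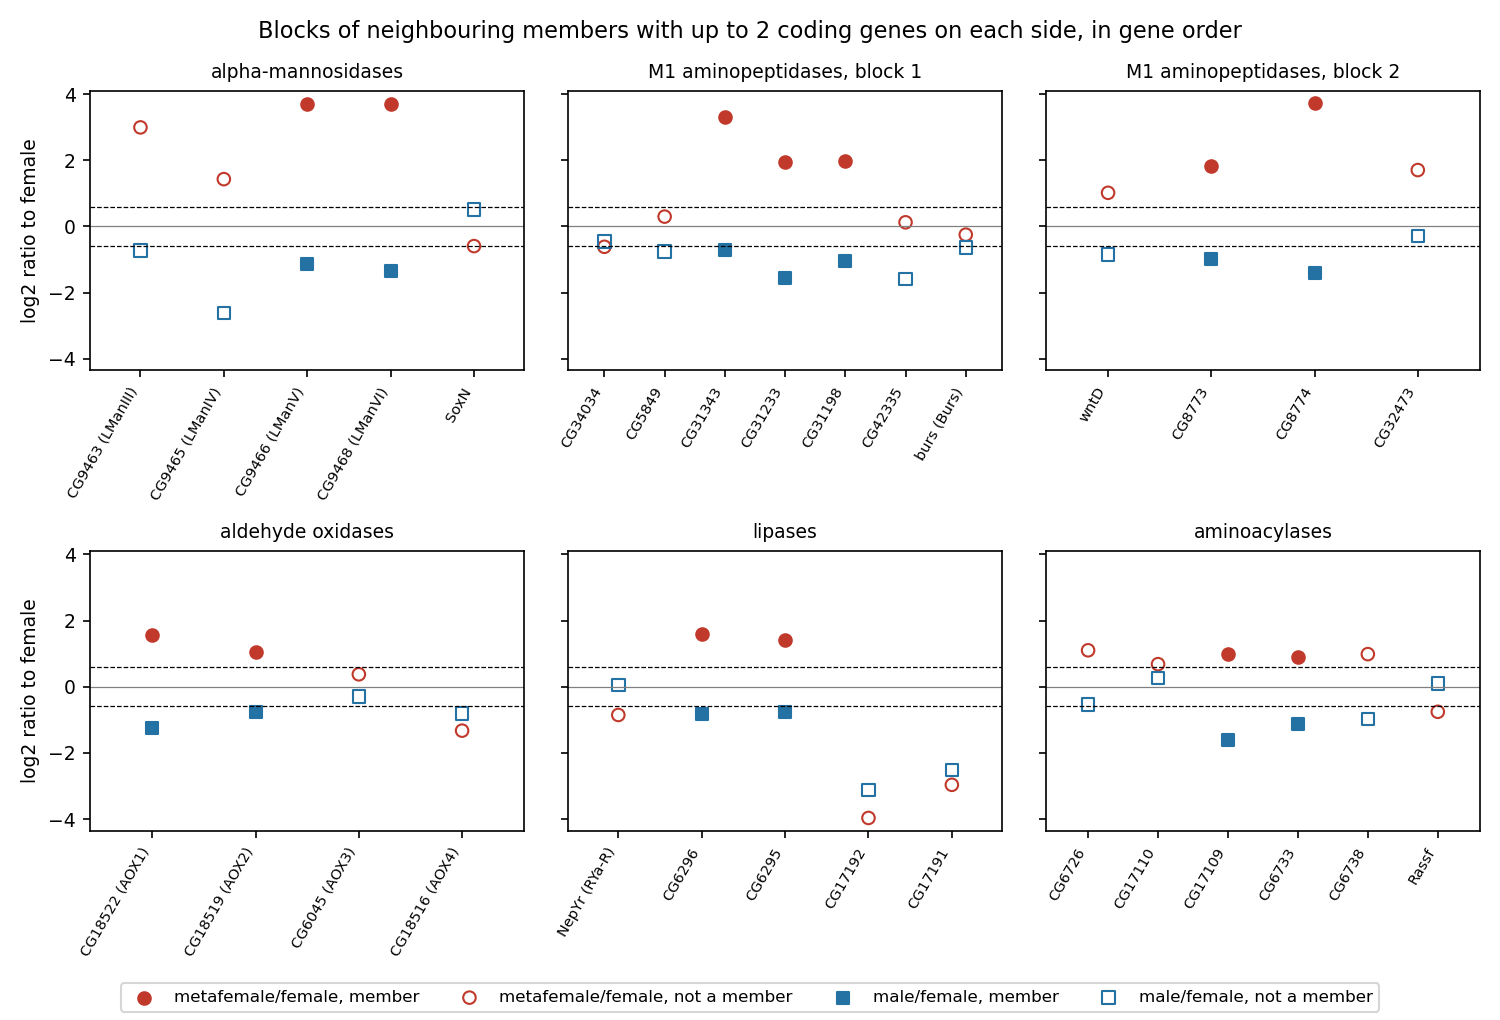
Log2 ratio to females for metafemales (red circles) and males (blue squares) at 6 blocks of neighbouring members, with up to 2 coding genes on each side in gene order and only genes with at least 0.1 CPM in females. Filled symbols are members, open symbols are not, and dashed lines are the limits of 1.5 and 0.67. LManIII and LManIV follow the members beside them, while AOX3 and CG17191 do not.

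Named genes of the same processes were set beside the members as lists of metabolism and tissue genes with at least 5 CPM in females, read against all 7598 genes at that level, X-linked ones included. Of all genes 10.1% reached a metafemale to female ratio of 1.5, 10.4% a male to female ratio of at most 0.67, and 4.03% both, and the median ratios were 0.774 and 0.928. A metafemale to female ratio of at most 0.67 was found in 36.9%. Sugar metabolism had 17 of 26 genes at 1.5 or more in metafemales, 14 at 0.67 or less in males and 12 past both, with medians of 1.90 and 0.656. AGBE is a member of this list, and examples outside the CG names are the glycogen phosphorylase gene GlyP (117, 212 and 777 CPM in males, females and metafemales) and Gpo-1 (7.46, 17.4 and 79.7), a mitochondrial glycerophosphate oxidase gene. Lipid synthesis and storage had 8 of 18, 8 and 7 genes past these limits, with medians of 1.24 and 0.772, among them the malic enzyme gene Men (78.3, 124 and 530.9 CPM) and the long-chain acyl-CoA synthetase gene bgm (13.3, 22.5 and 57.5). CG3523 (FASN1), which the rule left out by name, is among those 7, and CG11198 (ACC), which the rule also names, is in the list. In metafemales 2 lipid genes were at 0.67 or less, among them Lsd-1 (209, 263 and 147 CPM).

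Fat body storage genes divided, with 5 of 16 at 1.5 or more in metafemales, 7 at 0.67 or less in males and the same 5 past both limits, and 5 at 0.67 or less in metafemales. Apoltp is in this list, and apolpp (Rfabg), the lipoprotein precursor it serves, had 1360.2 CPM in males, 2337 in females and 3770.4 in metafemales. Lsp2, a larval serum protein gene, had 9876, 9444 and 5064 CPM, which is not the members' order. Detoxification genes had 11 of 41 at 1.5 or more in metafemales, 19 at 0.67 or less in males and 9 past both, for example Cyp28a5 (3.59, 9.62 and 34 CPM) and Cyp6a8 (3.23, 12.4 and 24.5). In metafemales 6 of them were at 0.67 or less, among them GstD1 (229, 331 and 214 CPM). The median metafemale to female ratio of the list was 1.19. The classical digestion genes, trypsins, Jonah proteases, maltases and lysozymes, divided otherwise: 10 of 38 were at 1.5 or more in metafemales and 9 at 0.67 or less in males, but betaTry (129, 207 and 877 CPM) was the only gene past both. At 0.67 or less in metafemales were 4 of the 38.

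Markers of other tissues and of larval stage moved between the groups as well. Muscle genes had 19 of 24 at 1.5 or more in metafemales, 7 at 0.67 or less in males and 7 past both, and haemocyte genes had 7 of 16, 9 and 6. CG8193 (PPO2), which the rule left out by name, is among those 6. At 0.67 or less in metafemales were 0 muscle genes and 2 haemocyte genes. Salivary glue genes had 8 of 11 at 0.67 or less in metafemales, where 36.9% of all genes were. These 8 were Eig71Ee and the Sgs genes, which are switched on late in the third instar. The 3 at 1.5 or more were ng1, ng2 and ng3, and 2 of them, ng1 and ng2, were past both limits. In males 3 of the 11 were at 1.5 or more and 2 at 0.67 or less. Ecdysone response genes had 19 of 23 at 0.67 or less in metafemales, 1 at 1.5 or more and 1 past both, ftz-f1. In males 7 of the 23 ecdysone response genes were at 1.5 or more, where 7.3% of all genes were, and 2 at 0.67 or less. None of 31 testis genes had 5 CPM in females, and their summed value was 2298 CPM in males, 22.8 in females and 14.1 in metafemales.

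Summed over the defining markers of a tissue, none of which was at 0 in any group, the 6 midgut markers had 2606 CPM in males, 2785 in females and 6143 in metafemales, with a median metafemale to female ratio of 1.74. Jon65Aiv weighed most in this sum, with 2021, 1980 and 4284 CPM. In metafemales alphaTry and Amy-p were lower than in females, at ratios of 0.836 and 0.732. Over the 38 genes of the digestion list the median metafemale to female ratio was 1.25. The 6 fat body markers had 26362, 27465 and 32392 CPM, but their median metafemale to female ratio was 0.751: the sum was raised by Lsp1beta, which had 1505 CPM in males, 4342 in females and 17148 in metafemales. The 7 muscle markers had 3813, 5314 and 18698 CPM and the 6 haemocyte markers 119.6, 246 and 535, with median metafemale to female ratios of 3.01 and 1.45. The sums of the 9 salivary gland markers ran the other way, with 15304, 10638 and 2797 CPM and median ratios to females of 1.03 in males and 0.346 in metafemales, and the 9 testis markers had 1009, 6.09 and 3.18. The part that stage, tissue share or the testis RNA of males has in the members' ratios was not tested.

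**Figure D4:**
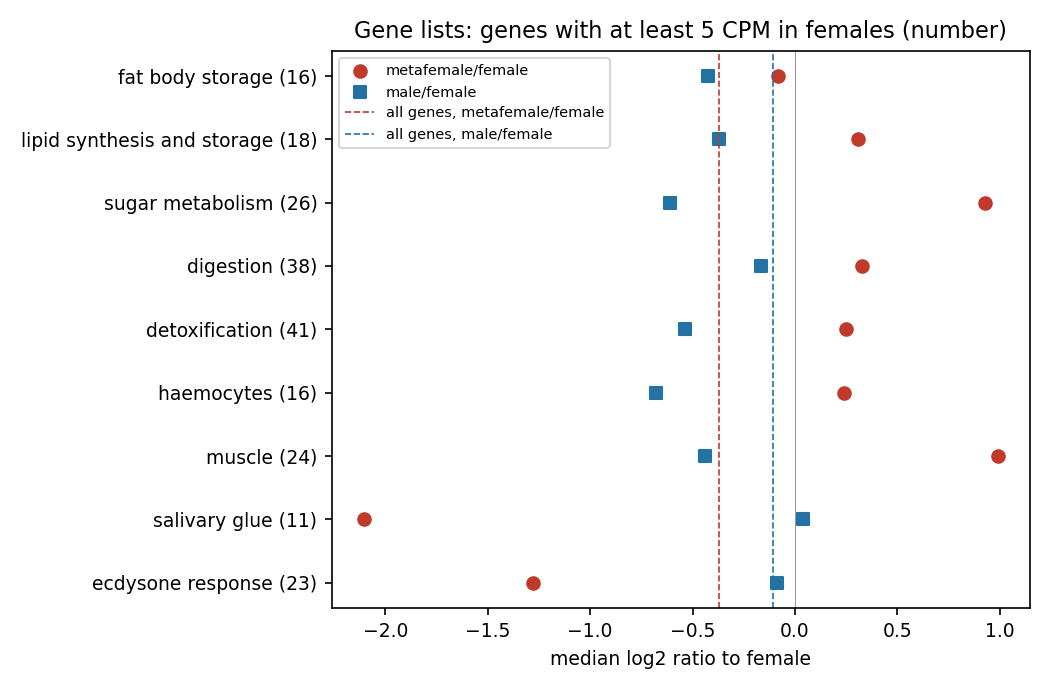
Median log2 ratio to females for metafemales (red circles) and males (blue squares) in 9 gene lists, each over the genes with at least 5 CPM in females, whose number stands beside the name. Dashed lines are the medians of all 7598 genes, and no error is shown because each group has 1 pooled value. Sugar metabolism and muscle genes lie furthest right for metafemales, and salivary glue and ecdysone response genes furthest left.

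The counts depend on how the columns are scaled to each other. Median-of-ratios scaling raised metafemale to female ratios by 0.41 on the log2 scale and scaling on the median autosomal gene raised them by 0.46, while male to female ratios moved by -0.04 and 0.01. Among the 3055 autosomal CG genes, 303 were at least 1.5 times higher in metafemales and 1220 (39.9%) at most 0.67 times as high as deposited, 547 and 596 after median-of-ratios scaling, and 595 and 551 after autosomal scaling. With median-of-ratios scaling 180 genes met the rule, among them all 115 members, and with autosomal scaling 161, among them 113.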

How the data were processed

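RNA-seq covered 3 groups of larvae, each deposited as 1 column that pools 3 biological repeats. As deposited, a value is the fraction of a group's transcript counts that fell on a transcript, in a table of 19040 autosomal and a table of 3698 X-linked transcripts, and over both tables each column sums to 1. Alignment used TopHat and counting HTSeq on build dm3, per the submitters' processing notes; for versions, annotation release and strand setting the labels give nothing.

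Here the values were multiplied by 1000000 (CPM), and each gene name was represented by its transcript of highest mean over the columns. Below 0.05 CPM, 100% of values could be written as whole numbers of reads from 3 libraries per column (relative tolerance 1e-05), which gave library totals and, from them, counting intervals (95%). A level of 3 counts corresponds to 0.0133 CPM for the female, 0.0178 for the male and 0.0112 for the metafemale column. The steps, intervals and rule were tested on simulated data with Python 3.11.15, pandas 2.3.3 and scipy 1.17.1.

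Names, arms, neighbours and gene models came from RefSeq Release 6 and Ensembl release 115, another build than dm3, so no coordinates are given. The members and the gene lists (fat body storage, lipid synthesis and storage, sugar metabolism, digestion, detoxification, haemocytes, muscle, testis, salivary glue, ecdysone response) were chosen with earlier results of these data known, and roles were assigned after the values were seen. Named genes are members with the 10 highest metafemale to female ratios, the 10 lowest male to female ratios, the 10 highest female values or the 5 highest metafemale to male ratios, members at the limits, with neighbours or with a role, and list genes past both limits or with the 2 highest female values, of which examples are given; flanking genes were added. Planned comparisons of promoter motifs, protein families and N-terminal stretches were not run because no sequences were used here. Alternatives were other scalings, sums over transcripts, added pseudocounts and other limits.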

Additional observations from a re-analysis of the deposited data

How the results depend on the processing

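The rule gave 115 genes as reported, and 180 with median-of-ratios scaling, 75 with a female minimum of 10 CPM, 260 with no minimum and 26 with limits of 2 and 0.5; the last 4 counts follow from what each setting changes. With a minimum of 1 CPM it gave 166, with sums over transcripts 117 (114 shared), with 1 CPM added 99, with 0.1 CPM added 113, and with Release 6 arms 115. List medians of metafemale to female (log2) with median-of-ratios and autosomal scaling turned from -0.08 to 0.33 and 0.38 for fat body storage. They were 0.72 and 0.77 for lipid synthesis and storage, 1.34 and 1.39 for sugar metabolism, 0.74 and 0.79 for digestion, 0.66 and 0.71 for detoxification, 0.65 and 0.70 for haemocytes, 1.41 and 1.45 for muscle, -1.69 and -1.65 for salivary glue, and -0.86 and -0.82 for ecdysone response (-1.22 with 1 CPM added). For male to female, median-of-ratios scaling gave -0.64 for sugar metabolism, -0.20 for digestion, -0.47 for muscle and 0.0067 for salivary glue, which had 0.053 with autosomal scaling. Leaving out a repeat was not run, since each group has 1 pooled column. No paired analysis was possible because the columns carry no value per repeat. Depth limits the genes near 5 CPM most; the spread between repeats was not measured.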
